A study of Homo sapiens with 6 samples.

Results

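The genes described here make ribosomes: RNA polymerases I and III with their initiation factors, the small nucleolar complexes, the factors that process ribosomal RNA into the small and the large subunit, and the factors that carry the subunits out of the nucleus. They were chosen by symbol from a list of 54 genes. All 54 have a row in the count table of 54261 symbols, and 53 had enough reads to be tested among 14398 tested genes. RNA was sequenced from 786-O, a long-established line grown from a human renal cell carcinoma of the clear cell type. The 3 control libraries came from cells transfected with control guide RNA (PHF8 wildtype) and the 3 knockout libraries from cells transfected with guide RNA against PHF8 by CRISPR-Cas9 (PHF8 knockout). PHF8 is a histone demethylase that removes repressive methyl marks. Whether the edited cells were pooled or 1 clone is not stated, nor whether libraries within a group were cultured separately or shared a guide RNA. All p-values thus rest on library-to-library spread, which may be technical. In bulk RNA, fewer cells that express a gene and less RNA per cell cannot be told apart.

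Ribosome production begins in the nucleolus, where RNA polymerase I copies the ribosomal DNA repeats into one long precursor. RNA polymerase III makes the smallest ribosomal RNA, the transfer RNAs and other short RNAs. Small nucleolar RNAs bound to protein guide chemical marks onto the precursor, and large sets of processing factors cut and fold it into the 2 subunits before export. The pathway is a well known target of MYC, and growing tumour cells run it at a high rate. PHF8 itself has been described at ribosomal DNA promoters as an activator of RNA polymerase I transcription. The comparison here asks which transcripts of this machinery differ between knockout and control cells.

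Libraries held 21533615 to 29095133 counted reads. PHF8 had 36.6, 35.1 and 32.9 CPM (read counts scaled to a common library size) in control libraries 1, 2 and 3 and 10.8, 6.74 and 12.8 CPM in knockout libraries 1, 2 and 3. It was lower in all 3 knockout libraries (log2 fold change -1.78, SE 0.21; edgeR adjusted p = 1.19e-04). All 9 markers fixed for this cell type had reads, and their summed level was 6518 to 6580 CPM in control and 6979 to 8403 CPM in knockout libraries. VIM made up most of that sum, with means of 5152 and 5988 CPM, while CA9 had only 11 to 19 reads per library. Of 4 leukocyte markers 3, among them PTPRC and CD3E, had 0 reads in every library. The other, CD14, had 5 to 9 reads per library. The summed level of 4 endothelial markers was at most 3.03 CPM and that of 4 fibroblast and muscle markers at most 3.25 CPM. Knockout library 2 stood apart from knockout libraries 1 and 3, with 75.7 and 58.9 chi-square per degree of freedom against 11.3 between the latter pair.

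Genes of ribosome production were more often higher than lower in knockout cells. Of 53 tested, 30 were called higher and 8 lower at an adjusted p under 0.05 (edgeR), and 15 were not called. Over all tested genes 28.9% were called higher and 30.8% lower, 59.7% in all; among these genes the shares were 56.6%, 15.1% and 71.7%. The median log2 fold change was 0.36, against -0.01 over all tested genes, and the range was -1.12 to 1.43. Past 2-fold, 7 of the 53 were called higher (13.2%) and 2 lower (3.77%), against 9.2% and 14.2% of all tested genes. The 3 knockout libraries lay wholly above the 3 control libraries for 31 of the 53 genes and wholly below for 9, against 32.6% and 34.2% of all tested genes (66.8% in all). Without knockout library 2, 34 were called higher and 12 lower (31.7% and 33.3% of all genes tested then, 65% in all). Scaling by library totals only gave 25 higher and 13 lower (21.9% and 37.8% of all tested genes) and moved the median of all tested genes to -0.18 and that of these genes to 0.19.

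**Figure D1:**
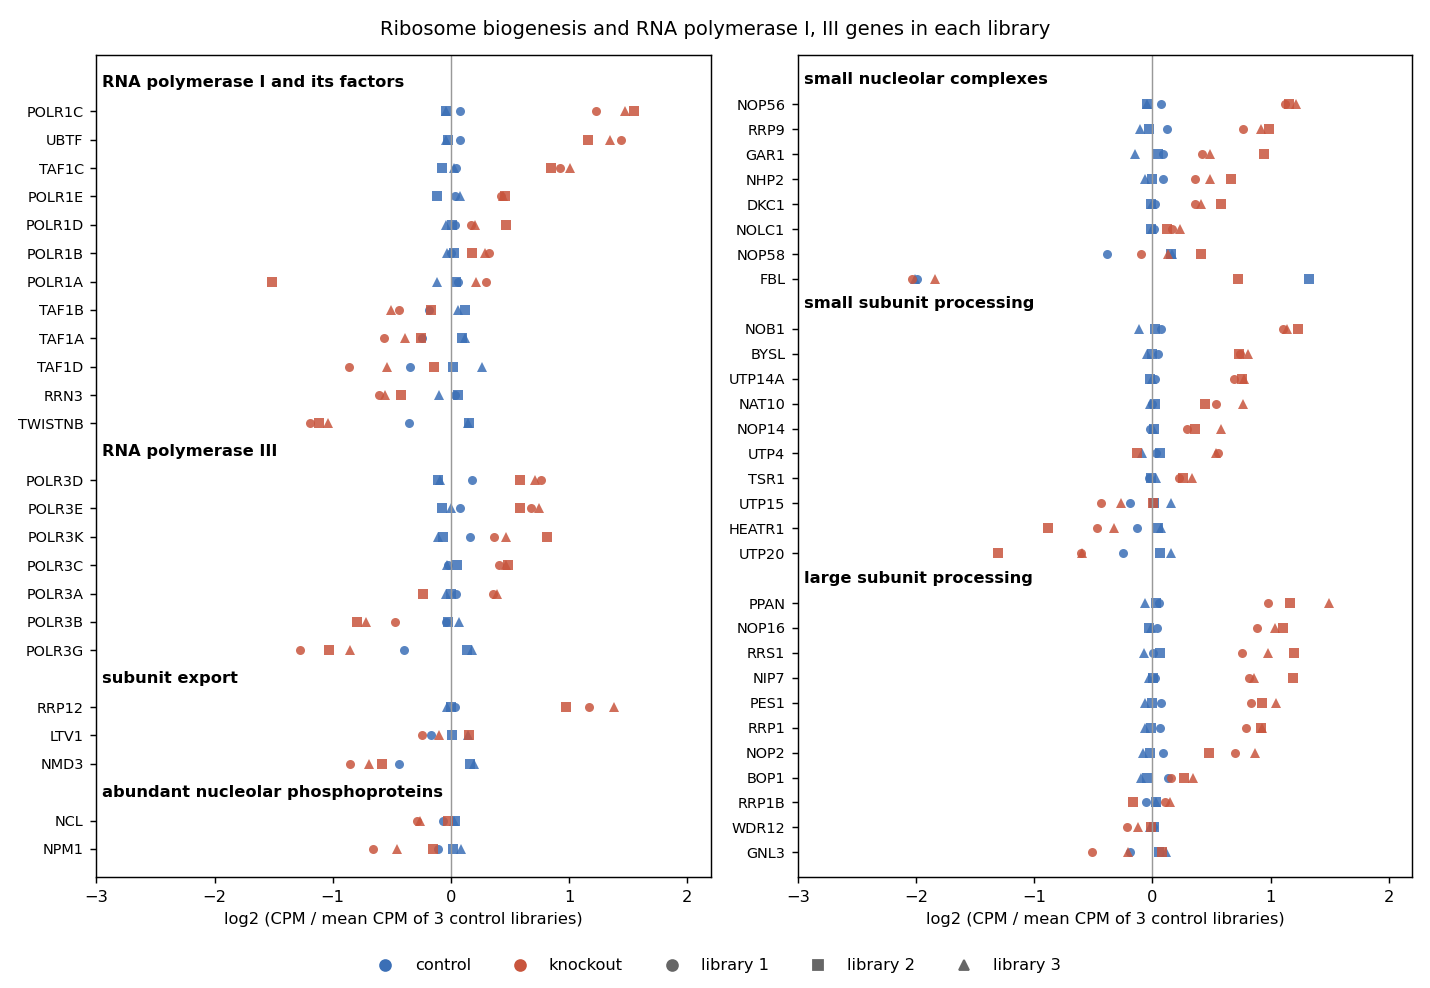
Level of each of the 53 tested genes in each library, as log2 of its CPM over the mean of the 3 control libraries, by role; blue is control, red is knockout, and the marker shape gives the library number. POLR1C, UBTF, NOP56, NOB1 and RRP12 lie to the right in all 3 knockout libraries, TWISTNB and POLR3G to the left, POLR1A falls in knockout library 2 alone, and FBL is high in library 2 of both groups.

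Some promoters of these genes hold a sequence motif that the choice of genes did not use. RefSeq windows on GRCh38.p14, each 300 bases from 250 before to 50 after the annotated start, matched 45 of the 54 genes. The E-box CACGTG, a palindrome that reads the same on both strands and that MYC and related factors are known to bind, occurred in 14 of the 45 windows (31.1%), against 7.26% of all 35116 such windows. It stood in 9 of 25 windows of genes called higher, 1 of 7 of genes called lower and 4 of 12 of genes not called. In 12 of the 14 the motif began within 50 bases of the start, which holds for 38.9% of all windows with the motif; this distance was chosen after the positions were seen. Of 136 windows of a wider list of ribosome production genes, described below, 32 held it (23.5%). Searched on both strands, CCGGAAG, the core of ETS factor sites, occurred in 17 of the 45 windows (37.8%, against 10.3% of all windows): 9 of 25 of genes called higher, 1 of 7 called lower and 7 of 12 not called. These are matches of letters and do not show binding. The windows used for comparison were neither limited to tested genes nor matched for GC content.

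To show where the E-box lies, 6 windows are printed from 120 bases before to 30 after the start, 5′ to 3′ on the gene's strand, with the motif in capitals. PES1 (chr22:30591881-30592030, minus strand), RRP9 (chr3:51941875-51942024, minus strand), NAT10 (chr11:34105509-34105658, plus strand) and POLR3E (chr16:22297289-22297438, plus strand) were called higher, UTP20 (chr12:101279985-101280134, plus strand) was called lower and FBL (chr19:39846350-39846499, minus strand) was not called. The motif begins 15 bases before the start in NAT10, 10 in UTP20, 5 in RRP9 and 1 in POLR3E, and at base 14 after it in PES1 and base 7 in FBL.
PES1: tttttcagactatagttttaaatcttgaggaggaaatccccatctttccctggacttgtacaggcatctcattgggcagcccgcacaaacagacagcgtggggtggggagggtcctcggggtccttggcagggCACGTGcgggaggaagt
RRP9: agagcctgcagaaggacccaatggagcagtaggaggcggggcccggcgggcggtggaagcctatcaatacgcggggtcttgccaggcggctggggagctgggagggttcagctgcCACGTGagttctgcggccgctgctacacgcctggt
NAT10: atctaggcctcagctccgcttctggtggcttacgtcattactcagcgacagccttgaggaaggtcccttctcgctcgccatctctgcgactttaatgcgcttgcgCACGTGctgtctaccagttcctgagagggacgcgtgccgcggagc
POLR3E: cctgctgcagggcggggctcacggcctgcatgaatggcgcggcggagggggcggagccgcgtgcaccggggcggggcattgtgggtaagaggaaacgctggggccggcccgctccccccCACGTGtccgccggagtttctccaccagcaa
UTP20: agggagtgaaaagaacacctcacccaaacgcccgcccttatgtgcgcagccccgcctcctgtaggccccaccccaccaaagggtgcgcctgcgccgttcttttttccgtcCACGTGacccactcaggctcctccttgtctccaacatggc
FBL: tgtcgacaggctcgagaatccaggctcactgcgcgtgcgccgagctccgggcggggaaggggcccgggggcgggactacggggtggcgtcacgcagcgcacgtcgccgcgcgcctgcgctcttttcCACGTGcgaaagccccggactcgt

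RNA polymerase I and its factors were divided. Of 12 tested, 6 were called higher and 2 lower (28.9% and 30.8% of all tested genes), with a median of 0.07 on the log2 scale. Library totals only gave 4 higher and 5 lower (33.3% and 41.7%, median -0.10), against 21.9% and 37.8% of all tested genes (median -0.18). The length and GC offset described below gave 4 higher and 1 lower (33.3% and 8.33%), against 30.7% and 28.4% of all tested genes. The 4 largest changes were POLR1C, UBTF, TWISTNB and TAF1C. UBTF encodes the upstream binding factor, which coats active ribosomal DNA; it lies on chromosome 17 (44205033 to 44221626, GRCh38). Its level was 138, 129 and 127 CPM in control and 355, 293 and 333 CPM in knockout libraries 1, 2 and 3. The groups did not overlap, and the rise was 2.49-fold (log2 fold change 1.32, SE 0.10; adjusted p = 2.06e-05). POLR1C encodes a subunit that polymerases I and III share (chromosome 6, 43509702 to 43562419). It had 39.6, 36.5 and 36.4 CPM in control and 87.9, 110 and 104 CPM in knockout libraries, a 2.69-fold rise (log2 fold change 1.43, SE 0.11). TAF1C, a subunit of the selectivity factor SL1 that recruits polymerase I to its promoter, had 25.1, 23.1 and 24.8 CPM in control and 46.2, 43.7 and 48.8 CPM in knockout libraries (1.90-fold, SE 0.10 on the log2 scale). Every knockout library was above every control library for these 3 genes.

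The polymerase I subunit gene TWISTNB (now POLR1F; chromosome 7, 19695461 to 19709037) went the other way. It had 36.6, 52.2 and 51.7 CPM in control and 20.5, 21.6 and 22.8 CPM in knockout libraries, a 2.17-fold fall (log2 fold change -1.12, SE 0.15; adjusted p = 2.58e-04). The other SL1 subunit genes TAF1A, TAF1B and TAF1D lay at -0.39, -0.36 and -0.49 on the log2 scale, none past the threshold (adjusted p = 0.0541, 0.0514 and 0.0666). All 3 passed as lower without knockout library 2 (adjusted p = 0.0265, 0.00972 and 0.00733). With the length and GC offset they lay at -0.10, -0.01 and -0.26 and with median transcripts at 0.12, -0.02 and 0.08, none called. The rises of the subunit genes POLR1E (1.35-fold), POLR1D (1.22-fold, shared with polymerase III) and POLR1B (1.20-fold, the second largest subunit) were small. The calls of POLR1B and POLR1D were lost with library totals only (log2 fold changes 0.10 and 0.12), with the replicate number as a block and without any of several single libraries.

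POLR1A, which encodes the largest subunit of polymerase I, was not called and its libraries disagreed. Control libraries had 93.6, 92.4 and 82.9 CPM and knockout libraries 110, 31.4 and 104 CPM. Knockout library 2 was lower than all others, and knockout libraries 1 and 3 were above all controls. With all libraries the log2 fold change was -0.13 (SE 0.37); without knockout library 2 it was 0.26 (adjusted p = 0.0123, called higher). RRN3, the initiation factor that ties polymerase I to its promoter, had only 29 to 48 reads per library. It was listed as lower (log2 fold change -0.53, adjusted p = 0.0496), a call lost in 14 of 16 alternatives, among them the omission of any single library (adjusted p from 0.0162 to 0.989 over all alternatives). RRN3 has near-identical pseudogene copies, so its reads may be split. ZNRD1 (now POLR1H), a small subunit, is listed at 0 reads in all 6 libraries and was not tested.

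Subunits of RNA polymerase III, the enzyme of transfer RNA genes, were mostly higher. Of 7 tested, 4 were called higher (57.1%) and 2 lower (28.6%), against 28.9% and 30.8% of all tested genes. The median was 0.45 on the log2 scale. POLR3D had 22.1, 18.1 and 18.3 CPM in control and 33.1, 29.2 and 31.9 CPM in knockout libraries, a 1.61-fold rise (log2 fold change 0.69, SE 0.12; adjusted p = 0.00122). POLR3E had 36.5, 32.8 and 34.6 CPM against 55.2, 51.9 and 57.9 CPM, a 1.59-fold rise; its E-box spans the start site (sequence above). POLR3K and POLR3C rose 1.48-fold and 1.37-fold, and for these 4 genes the groups did not overlap. The second largest subunit gene POLR3B was 1.58-fold lower, at 15.4, 15.5 and 16.6 CPM in control and 11.4, 9.12 and 9.63 CPM in knockout libraries. POLR3A, the largest subunit gene and the highest of the 7 by mean CPM, had 72.8, 70.6 and 68.7 CPM in control and 90.7, 59.9 and 92.5 CPM in knockout libraries. It was not called (log2 fold change 0.20, SE 0.16), and passed as higher without knockout library 2 (0.38, adjusted p = 8.80e-04), the only knockout library below the controls.

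POLR3G and POLR3GL encode alternative versions of one polymerase III subunit, the former known from stem and tumour cells. POLR3G (chromosome 5, 90471748 to 90514557) had 9.65, 14 and 14.4 CPM in control and 5.25, 6.22 and 7.02 CPM in knockout libraries, a 2.06-fold fall (log2 fold change -1.04, SE 0.19; adjusted p = 0.00141). POLR3GL had 21.9, 20.2 and 23 CPM in control and 20.7, 26.5 and 18.3 CPM in knockout libraries and was not called (0.01, SE 0.15). POLR3G reads were 44.2%, 69.3% and 62.8% of POLR3GL reads in control and 25.4%, 23.5% and 38.4% in knockout libraries. The log2 ratio was -0.79 ± 0.34 in control and -1.82 ± 0.38 in knockout cells (SD, n = 3 each; 2-sided exact permutation test p = 0.1, the smallest that 3 against 3 libraries allow). The difference of -1.02 was -0.04 with a per-library correction for length and GC content of transcripts (the offset described below) and -0.45 when that offset used median transcripts.

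Genes of the small nucleolar complexes, which carry the guide RNAs, were higher or not called. Of 8 tested 5 were called higher (62.5%) and 0 lower, against 28.9% and 30.8% of all tested genes. The median was 0.48 on the log2 scale. At an unadjusted p under 0.05 the number lower was also 0, and DESeq2 called 0 lower. NOP56, a core protein of box C/D particles and the highest of the 8 by mean CPM over all libraries (chromosome 20, 2652593 to 2658393), had 253, 233 and 233 CPM in control and 521, 534 and 558 CPM in knockout libraries. The groups lay far apart, with a 2.24-fold rise (log2 fold change 1.17, SE 0.09; adjusted p = 1.68e-05). RRP9, a protein specific to the U3 particle, had 73.5, 66.2 and 63.0 CPM against 115, 134 and 128 CPM (1.86-fold). In the box H/ACA particles, which guide pseudouridine formation, GAR1 rose 1.56-fold, from 77.4, 74.9 and 65.8 CPM to 97.5, 140 and 102 CPM. NHP2, its partner, had 120, 113 and 108 CPM in control and 145, 179 and 158 CPM in knockout libraries (1.42-fold). DKC1, the pseudouridine synthase, rose 1.37-fold. NOP58, the partner of NOP56 in box C/D particles, was not called, with 49.1, 71.5 and 72.1 CPM in control and 60.2, 85.2 and 70.4 CPM in knockout libraries. NOLC1, a chaperone of both kinds of particle, lay at 0.18 (SE 0.08; adjusted p = 0.0917).

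FBL, the methyltransferase of box C/D particles, had a pattern of its own, and is named here because of it. It had 3.99, 39.8 and 3.96 CPM in control and 3.87, 26.2 and 4.45 CPM in knockout libraries 1, 2 and 3. Library 2 of both groups was high and the other 4 libraries agreed closely, and FBL was not called (log2 fold change -0.47, SE 0.96; adjusted p = 0.693). With the replicate number as a block it lay at -0.20 (adjusted p = 0.378), and with block and length and GC offset together at -0.83, called lower (adjusted p = 0.00759). The replicate numbers did not pair the libraries over all genes. The reads behind these values were 91, 994 and 106 in control and 93, 648 and 121 in knockout libraries. Control means were 15.9 CPM for FBL, 240 CPM for NOP56 and 64.2 CPM for NOP58, its partners in box C/D particles. Whether read mapping or counting shaped the FBL values was not tested, so its level is uncertain. Among the 14398 tested genes only FBL and GSDMD were more than 2-fold higher in library 2 of both groups than in all 4 other libraries (with 0.5 CPM added), and the other 8 pairings of a control with a knockout library gave at most 1 gene each.

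The 2 abundant nucleolar phosphoproteins were not raised. NPM1, nucleophosmin, had 1082, 1182 and 1240 CPM in control and 738, 1051 and 851 CPM in knockout libraries, with no overlap of the groups, a 1.33-fold fall (log2 fold change -0.41, SE 0.13; adjusted p = 0.0223). The call was lost without control library 2 or 3 or without knockout library 1 or 3, and with the median transcript offset (0.09; adjusted p from 3.91e-04 to 0.411 over all alternatives). NCL, nucleolin, had 1168, 1250 and 1247 CPM against 1003, 1204 and 1018 CPM and was not called (log2 fold change -0.18, SE 0.10). Per kilobase of transcript NPM1 and NCL had the highest control levels of all 54 genes, 885 and 311 CPM. NHP2 with 145 CPM and NOP56 with 125 CPM followed.

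Factors of small subunit processing were mostly higher, and the longest 2 were lower. Of 10 tested, 6 were called higher (60%) and 2 lower (20%), against 28.9% and 30.8% of all tested genes. The median was 0.38 on the log2 scale. NOB1, the nuclease that makes the last cut of the small subunit RNA (chromosome 16, 69741871 to 69754926), had 75.7, 73.0 and 66.5 CPM in control and 154, 169 and 158 CPM in knockout libraries. This 2.24-fold rise (log2 fold change 1.16, SE 0.10; adjusted p = 2.64e-05) was seen in each knockout library. BYSL, a late assembly factor, had 57.2, 55.4 and 53.9 CPM against 92.5, 92.1 and 97.4 CPM (1.69-fold), and UTP14A, a cofactor of the processing helicase, 45.4, 44 and 44.5 CPM against 72.1, 75.3 and 76.2 CPM (1.67-fold). The RNA acetyltransferase gene NAT10 rose 1.51-fold, and NOP14 rose 1.33-fold. TSR1, the highest of the 10 by mean CPM, rose 1.21-fold, from 154, 156 and 160 CPM to 183, 188 and 198 CPM, a call lost in 6 of 16 alternatives, among them library totals only (log2 fold change 0.11) and median transcripts (0.07).

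UTP20 and HEATR1 encode very large scaffold proteins of the early small subunit particle. UTP20 had 54.6, 67.6 and 72.1 CPM in control and 42.5, 26.2 and 42.9 CPM in knockout libraries, a 1.74-fold fall (log2 fold change -0.80, SE 0.19; adjusted p = 0.00582). HEATR1 fell 1.45-fold (adjusted p = 0.00966), with knockout values from 52.6 to 77.1 CPM and control values from 88.6 to 102 CPM. In both, knockout library 2 was the lowest. With the length and GC offset UTP20 was not called (0.03, adjusted p = 0.808) and HEATR1 was called higher (0.32, adjusted p = 0.00432). UTP4 was not called with all libraries (log2 fold change 0.36, SE 0.17): knockout libraries 1 and 3 had 78.5 and 77.4 CPM, library 2 had 48.6 CPM, and controls had 50 to 55.6 CPM. UTP15 was not called (-0.22, SE 0.15).

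Large subunit processing had the highest median of the roles, 0.88 on the log2 scale. Of 11 tested, 8 were called higher (72.7%) and 0 lower, against 28.9% and 30.8% of all tested genes. The median of the role was 0.48 with the length and GC offset (polymerase III 0.49). With median transcripts it was 0.46 (small nucleolar complexes 0.59), so it was then not the highest. BOP1 was called lower with either offset (-0.27 and -0.24), and WDR12 with library totals only (-0.28, edgeR adjusted p = 0.031). GNL3 was called lower without knockout library 2 (-0.35, edgeR adjusted p = 0.0208). At an unadjusted p under 0.05, and with DESeq2, 0 of the 11 were lower. The roles were set with earlier results known. Over all 23 ribosomal RNA processing genes, with small subunit processing, NPM1 and NCL included, 14 were called higher and 3 lower (median 0.41). NOP16, a nucleolar assembly factor, had 63.6, 60.8 and 61.3 CPM in control and 114, 133 and 127 CPM in knockout libraries (2.01-fold; log2 fold change 1.01, SE 0.10; adjusted p = 4.89e-05). RRS1, which helps to place the 5S particle, had 95.1, 99.2 and 90.1 CPM against 160, 217 and 187 CPM (1.98-fold). NIP7 had 78.8, 77.8 and 76.3 CPM against 137, 177 and 141 CPM (1.95-fold). The groups were well apart for all 3 genes. PES1, BOP1 and WDR12 form one complex, and their transcripts differed. PES1, which has an E-box just after its start (sequence above), had 192, 183 and 175 CPM in control and 327, 348 and 377 CPM in knockout libraries, a 1.91-fold rise (log2 fold change 0.93, SE 0.09). BOP1 was 1.20-fold higher (adjusted p = 0.046), a call lost or reversed in 9 of 16 alternatives. WDR12 was not called (-0.11, SE 0.09). NOP2, an RNA methyltransferase, rose 1.62-fold, and GNL3, nucleostemin, was not called (-0.19, SE 0.15). PPAN had 1.14, 1.12 and 1.05 CPM in control and 2.17, 2.46 and 3.09 CPM in knockout libraries, the largest fold of the role (2.33-fold) on 26 to 84 reads per library; the read-through gene PPAN-P2RY11 covers 47.6% of its exon bases, so its reads are uncertain.

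RRP1 and RRP1B are paralogs on chromosome 21 that differed in response. RRP1 (43789513 to 43805293) had 75.5, 71.5 and 69.2 CPM in control and 125, 136 and 137 CPM in knockout libraries (1.84-fold; log2 fold change 0.88, SE 0.09; adjusted p = 6.79e-05). RRP1B (43659560 to 43696079) had 105, 111 and 111 CPM in control and 117, 97.3 and 121 CPM in knockout libraries (0.04, SE 0.11). RRP1 reads were 62.3% to 72.2% of RRP1B reads in control and 107% to 139% in knockout libraries. Per base of transcript RRP1 already lay above RRP1B in control cells (log2 ratio 0.18, against 1.03 in knockout cells). The difference of the log2 ratio was 0.85 (2-sided exact permutation test p = 0.1, the smallest possible); it was 0.38 with the length and GC offset and 0.19 with that for median transcripts.

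The 3 export genes went different ways. RRP12, a factor of late maturation and export of both subunits (chromosome 10, 97356358 to 97426076), had 79.4, 77.3 and 75.7 CPM in control and 174, 152 and 201 CPM in knockout libraries, a 2.26-fold rise (log2 fold change 1.18, SE 0.11; adjusted p = 5.28e-05). NMD3, the adaptor that links the large subunit to the exporter, had 40.5, 61.4 and 62.9 CPM against 30.4, 36.7 and 34.0 CPM, a 1.63-fold fall (log2 fold change -0.71, SE 0.17; adjusted p = 0.00595). LTV1, an adaptor of the small subunit, had 42.7, 48.2 and 53.2 CPM against 40.5, 53.5 and 44.8 CPM and was not called (-0.06, SE 0.13). XPO1, the exporter of both subunits and of many other cargoes and no member of the list of 54, had 261, 336 and 343 CPM in control and 121, 106 and 121 CPM in knockout libraries. It was 2.70-fold lower (log2 fold change -1.43, SE 0.12; adjusted p = 3.36e-05), with every knockout library below every control library.

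**Figure D2:**
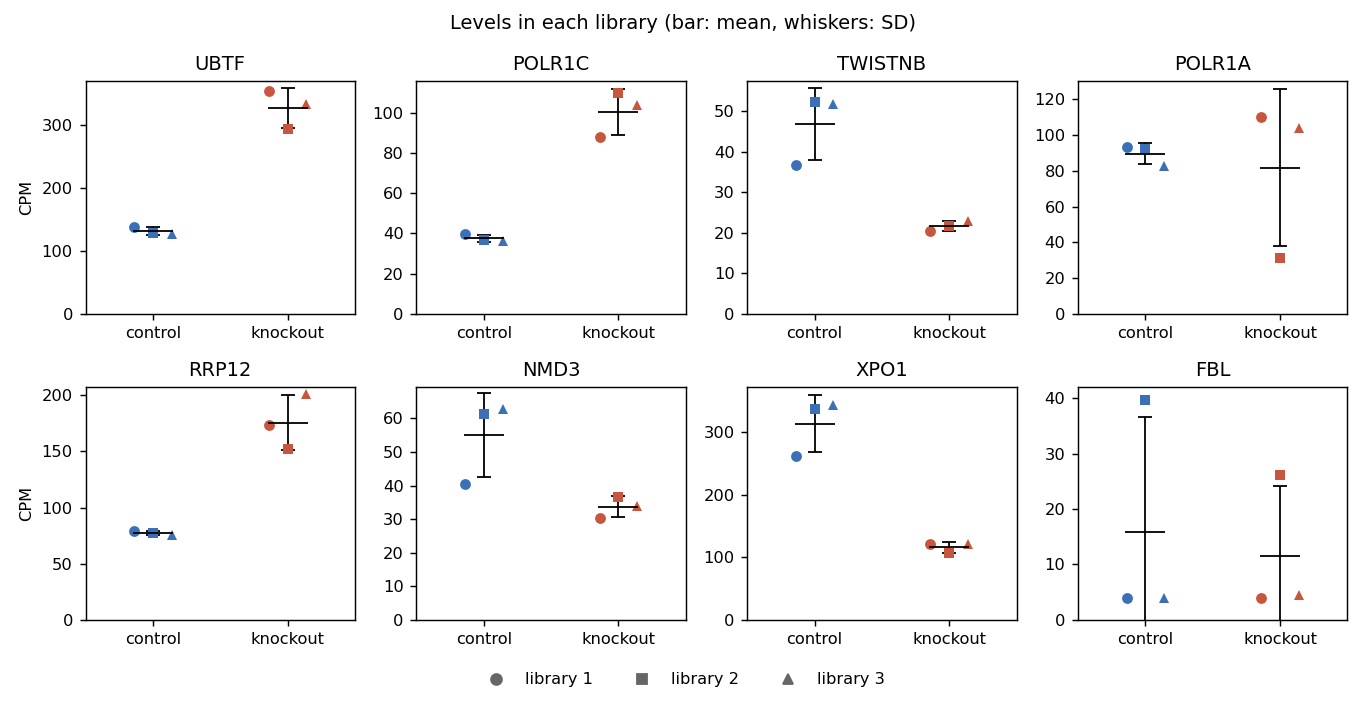
CPM of 8 genes in each library, with the mean (bar) and SD (whiskers, cut off at 0 for FBL); blue is control, red is knockout. UBTF, POLR1C and RRP12 are higher and TWISTNB, NMD3 and XPO1 lower in all knockout libraries, knockout library 2 alone is low for POLR1A at 31.4 CPM, and library 2 of both groups is high for FBL.

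A wider list of 168 further genes of the pathway was counted in the same way. Of 166 tested, 69 were called higher (41.6%) and 35 lower (21.1%), against 28.9% and 30.8% of all tested genes, with a median of 0.21 on the log2 scale. With library totals only 47 were higher and 46 lower (28.3% and 27.7%, median 0.04), against 21.9% and 37.8% of all tested genes (median -0.18). In small subunit processing 19 of 41 were higher and 9 lower. TBL3, a scaffold protein of the early particle, rose 2.67-fold, from 56.6 ± 1.04 to 151 ± 9.75 CPM (SD, n = 3 each), and NOC4L rose 2.11-fold; WDR36 and the helicase gene DDX10 fell 2.09-fold and 1.8-fold. In large subunit processing 27 of 61 were higher and 12 lower. WDR74 rose 2.42-fold and GLTSCR2 (now NOP53) 2.11-fold, while NOC3L fell 2.39-fold and NOL8 1.89-fold. Among further polymerase I genes 5 of 16 were higher (31.2%) and 4 lower (25%), near the shares of all tested genes. The subunit gene CD3EAP (now POLR1G) rose 2.07-fold, and POLR2H, a subunit common to the 3 nuclear polymerases, 1.66-fold. The remodeller gene SMARCA5 fell 2.06-fold and WDR75 fell 1.76-fold.

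Among further polymerase III genes 8 of 21 were higher (38.1%) and 3 lower (14.3%), against 28.9% and 30.8% of all tested genes. BRF2, an initiation factor of the U6 type of promoter, rose 2.24-fold, from 7.49 ± 1.13 to 16.7 ± 0.222 CPM (SD, n = 3 each). SNAPC1, of the complex that works with BRF2 at such promoters, fell 2.23-fold, and GTF3C3, of the factor TFIIIC, fell 1.69-fold. Among assembly factors of small nucleolar complexes 5 of 13 were higher (38.5%) and 3 lower (23.1%). RUVBL2 rose 1.44-fold while its partner RUVBL1 fell 1.23-fold; SNU13, a box C/D core protein, rose 1.43-fold, and the chaperone adaptor gene RPAP3 fell 2.79-fold. In export and final maturation 5 of 14 were higher (35.7%) and 4 lower (28.6%), near the shares of all tested genes. There ZNF622 rose 2.12-fold and NXT1 rose 1.79-fold, and SPATA5 (now AFG2A) fell 2.34-fold besides XPO1. Among the wider-list genes named here, the length and GC offset ended the calls of WDR36, SMARCA5, POLR2H, GTF3C3, RUVBL2 and SNU13. With median transcripts DDX10 (-0.24), WDR75 (-0.23) and SNAPC1 (-0.34) were not called, nor were GTF3C3, RUVBL2 and SNU13. WDR36 (-0.46), SMARCA5 (-0.41) and POLR2H (0.57) were then called in the same direction as without an offset. The call of RUVBL1 was lost without any 1 of 4 libraries. MYC, a known activator of the pathway, rose 1.65-fold, from 102 ± 2.80 to 168 ± 16.5 CPM (SD, n = 3 each; adjusted p = 2.93e-04).

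**Figure D3:**
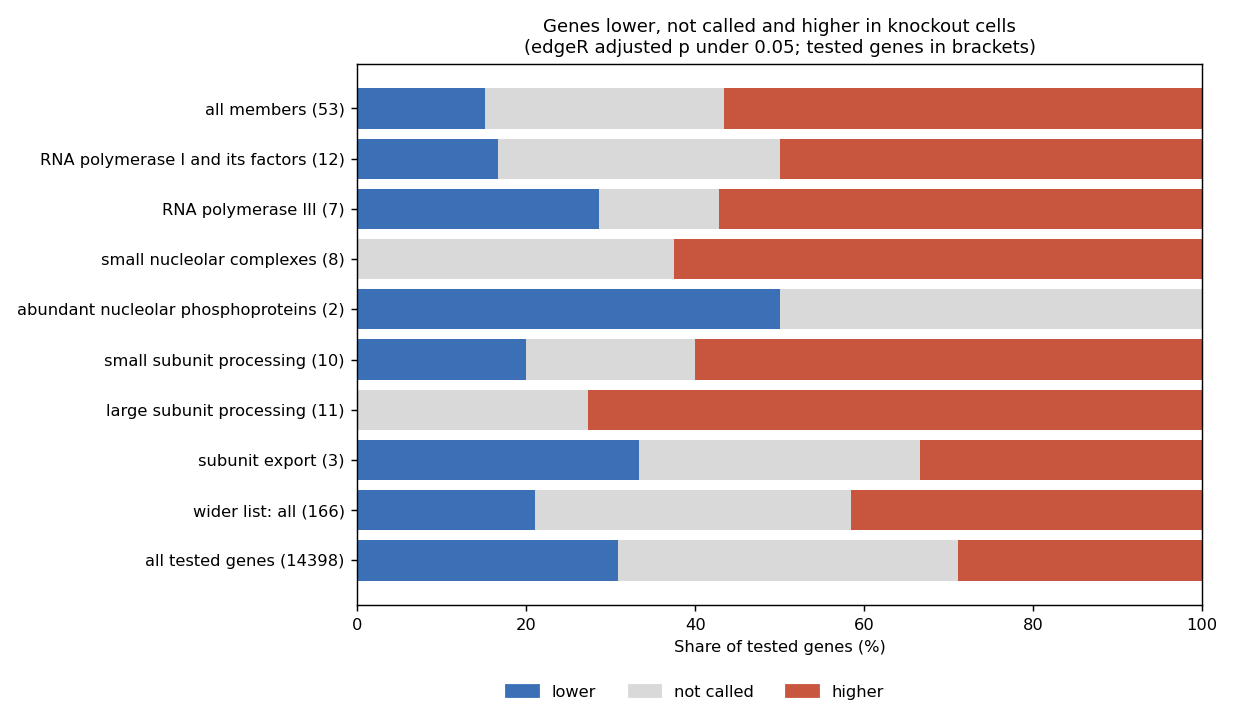
Share of tested genes called lower (blue), not called (grey) and called higher (red) in knockout cells, by role, with the number tested in brackets. Large subunit processing has the most higher calls of the roles (8 of 11), and the bottom bar gives 28.9% higher and 30.8% lower over all 14398 tested genes.

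Fold changes ran with the base composition of the transcripts. The 30 genes called higher had a median GC content of 51.6% and a median transcript length of 2365 bases (canonical GENCODE transcript). The 8 called lower had 41.3% and 3800 bases, and no gene called lower was above 43.6% GC. Across the 53 genes, which are not replicates, Spearman's rank correlation of the log2 fold change was 0.71 with GC content and -0.27 with length; across 13206 tested genes with both values it was 0.49 and -0.41. An offset that removes, in each library, smooth trends with length and GC content left 32 of the 53 genes higher and 4 lower, against 30.7% and 28.4% of all tested genes (59.2% in all). Where real group differences track either property, the offset takes them out too.

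Which genes were called did move with it. With the offset 26 of the 30 rises and 3 of the 8 falls (TWISTNB, POLR3G and NPM1) were called in the same direction. BOP1 turned from higher to lower (0.26 to -0.27) and HEATR1 from lower to higher (-0.54 to 0.32). The calls of POLR1D, POLR1E, NHP2, RRN3, POLR3B, UTP20 and NMD3 were lost, UTP20 lying at 0.03 and NMD3 at -0.18 on the log2 scale. POLR3A, NOP58, NOLC1, UTP15 and WDR12, not called before, were called higher with it, WDR12 at 0.83. Several canonical transcripts are much longer than the gene's other transcripts. With the median length and GC content of all GENCODE transcripts of a gene in their place, 34 were called higher and 3 lower. Over all tested genes the shares were 29.9% and 27.3%. Some of these medians were short, 491 bases for WDR12 and 793 for HEATR1, against canonical lengths of 8068 and 8459. With median transcripts WDR12 lay at 0.37, HEATR1 at -0.10 (not called) and POLR1B at 0.43 instead of 1.01. UBTF lay at 1.27 and 1.17 with the 2 offsets, POLR1C at 1.02 and 1.35, RRP12 at 1.03 and 0.77, NOP56 at 0.77 and 0.93 and TWISTNB at -0.45 and -0.39. XPO1 lay at -0.75 and -0.46, and both called it lower. Under all 16 alternatives 25 of the 38 calls held in direction and threshold, 23 of them rises; the 2 falls were TWISTNB and POLR3G.

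**Figure D4:**
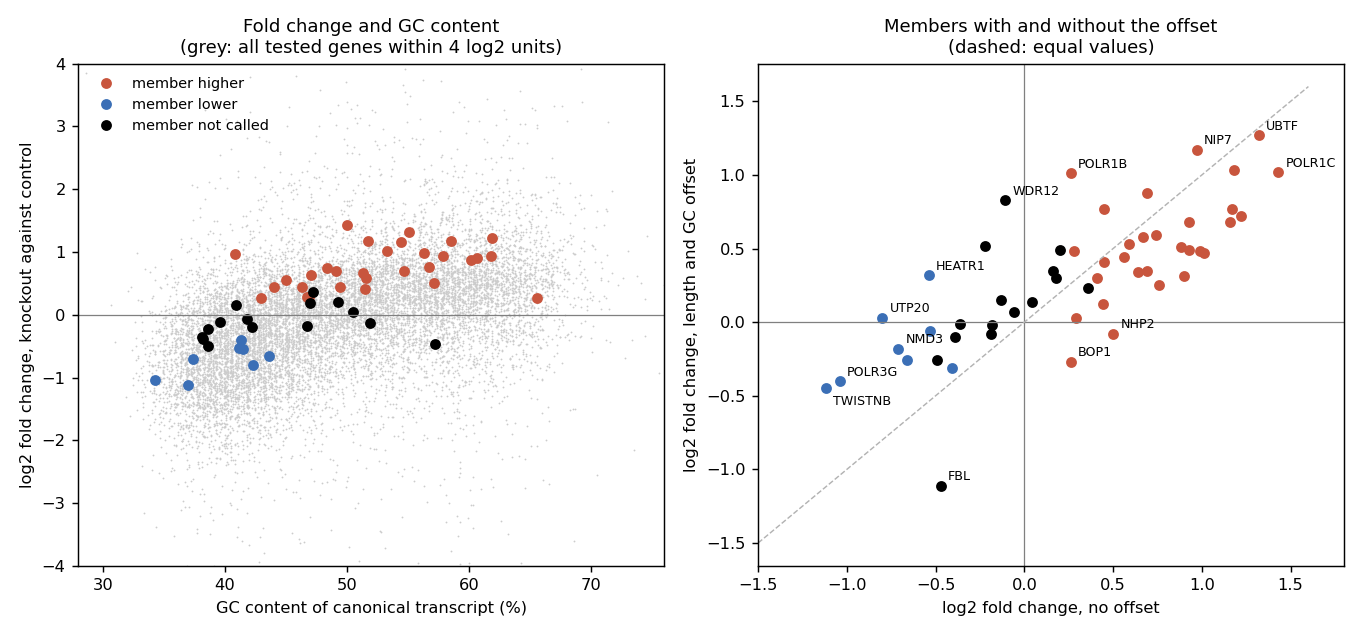
Left, log2 fold change of knockout against control by GC content of the canonical transcript, with all tested genes in grey and the 53 genes coloured by call. Right, their log2 fold change without (x) and with (y) the length and GC offset. In the left panel genes called lower lie at 43.6% GC or less. Of the 8 genes that change sign in the right panel, HEATR1 and BOP1 are called both without and with the offset.

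The RNAs that the 2 polymerases make could not be followed. The rows of the ribosomal precursor and of its mature products are listed at 0 reads in all libraries. Of 20 short or ribosomal RNAs with a row, 10 had 0 reads and 6 had at least 10 reads over all libraries; the 20 include SNORD3A, the U3 RNA, which polymerase II makes. RN7SK, made by polymerase III, had 60, 101 and 33 reads in control and 50, 24 and 44 reads in knockout libraries and was not called. RMRP, RPPH1, RNU6-1, VTRNA1-2 and SNORD3A had 12 to 51 reads in all 6 libraries together and were not tested.

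Several of these genes carry small nucleolar RNAs in their introns. By GENCODE 9 of them hold at least 1 on the same strand, TAF1D with 8 the most, and 28 of the hosted RNAs had a row. Only 9 had enough reads to be tested, 8 of them in TAF1D, and 1 was called: SNORA40, with 138, 229 and 231 reads in control and 82, 107 and 112 reads in knockout libraries (log2 fold change -1.01, SE 0.20; adjusted p = 0.00188). Its host TAF1D lay at -0.49 and was not called. SNORD110, in the risen NOP56, had 14, 7 and 15 reads in control and 25, 7 and 18 in knockout libraries and was not called (0.44, SE 0.49).

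Overlap with other genes limits some of these values, since the sources used here do not state the strand setting of the counting. At least 20% of the annotated exon bases are shared with another gene for NHP2 (28%, RMND5B), TSR1 (23.9%, SRR), HEATR1 (23.1%, LGALS8), NOP14 (20.7%, NOP14-AS1) and NOB1 (20.4%, NQO1-DT), all on the opposite strand, and for NOP2, PPAN and LTV1 on the same strand.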

How the data were processed

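Sequencing was of total RNA from 3 control and 3 PHF8 knockout 786-O libraries. Per the labels, reads were filtered, mapped to GRCh38 with HISAT2 (2.0.4, per the submitters' processing notes) and counted with HTSeq, whose version, strand setting and annotation the sources used here do not state. The deposited values are raw counts per gene symbol. Each column name is a sample title. Totals were 21533615 to 29095133 reads.

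Knockout was tested against control with edgeR 4.0.16 (limma 3.58.1, R 4.3.3): TMM factors, filterByExpr, quasi-likelihood test, group as the only term, Benjamini-Hochberg adjustment over 14398 genes, threshold 0.05. CPM uses the same factors; SE is the log2 fold change over the root of F. DESeq2 1.42.0 and limma-voom were alternatives. Positions, lengths and GC content are from GENCODE on GRCh38, matched by symbol (34145) or synonym (1578). The offset used lowess (span 0.3) over the 91.7% of tested genes with both values; median transcripts were added after seeing the data.

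The members, roles and lists were chosen with earlier results of these data known. Library values are given for up to 4 called members with the largest change in each role, its most abundant member, 2 paralog pairs and PHF8; POLR1A, FBL, RRN3, HEATR1, UTP4, NOP58 and RN7SK values were added after seeing them. From each wider list up to 2 genes per direction with the smallest p are named. Some items that these rules would name are not reported here. The test was checked on simulated counts of the same genes. It found 20.9% of 1.5-fold, 67.2% of 2-fold and 90.9% of 4-fold changes, with 8 false among 127 calls. Far more genes were called in the real data (8593), so these shares may not carry over.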

Additional observations from a re-analysis of the deposited data

How the results depend on the processing

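Depth limits RRN3 and PPAN (29 to 48 and 26 to 84 reads per library) and the short RNAs. The 30 higher calls stayed within 25 to 34 over all alternatives. The 8 lower calls became 13 with library totals only, which moved the median of all tested genes from -0.01 to -0.18, 4 with the length and GC offset and 3 with median transcripts; leaving out 1 library gave 6 to 12 lower and 26 to 34 higher. Over all tested genes 4158 were higher and 4435 lower, 3153 and 5441 with library totals only, and 3586 to 4647 and 3584 to 4895 when 1 library was left out. With the replicate block 26 members were higher and 8 lower, and over all genes 3895 and 4413. The replicate numbers did not pair the libraries: correlations of same-numbered libraries were 0.02, -0.044 and 0.0109, and the labels give no pairing. The block lost the calls of RRN3, POLR1B, POLR1D, TSR1 and BOP1 and added TAF1D; with the length and GC offset the block also called FBL lower (-0.83). Leaving out 1 library put the paralog ratio difference at -1.24 to -0.89 for POLR3G and 0.73 to 0.92 for RRP1.

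Signs turned as follows; causes were not tested. With the length and GC offset, without and with the replicate block, POLR1A lay at 0.15 and 0.09, NHP2 at -0.08 in both, UTP15 at 0.52 in both, UTP20 at 0.03 and 0.02, HEATR1 at 0.32 in both, BOP1 at -0.27 in both, WDR12 at 0.83 in both and LTV1 at 0.07 in both. With median transcripts TAF1A lay at 0.12, TAF1D at 0.08, NCL at 0.16, NPM1 at 0.09, UTP15 at 0.28, BOP1 at -0.24, WDR12 at 0.37, GNL3 at 0.25 and LTV1 at 0.44. With library totals only NOP58 lay at -0.00 and RRP1B at -0.13. Leaving out 1 library put POLR1A between -0.40 and 0.26, highest without knockout replicate 2; FBL between -1.93 and 1.55, without knockout and control replicate 2; RRP1B between -0.02 and 0.13, lowest without knockout replicate 3; and LTV1 between -0.17 and 0.04, above 0 without control replicate 3 or knockout replicate 1 (0.03).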
